A study of Mus musculus with 8 samples.

Results

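The cytoplasmic ribosomal proteins, the protein parts of the ribosomes that translate nuclear mRNAs, were followed in C2C12 cells after silencing of the long non-coding RNA Pvt1. Members were taken by name from the array annotation: every gene called Rpl, Rps or Rplp followed by a digit, and Rpsa, without the S6 kinase genes that start with Rps6k and without names marked as pseudogenes. The rule found 87 of the 37074 gene names on the array, measured by 186 probes on 771 spots. C2C12 is a mouse myoblast line, and all 8 cultures were proliferating cells at passage 10 that had been transfected with antisense LNA GapmeRs, short oligonucleotides that lead RNase H to cleave a paired RNA. In 4 cultures the GapmeRs were directed against Pvt1 (the silenced group) and in 4 cultures they were the supplier's negative controls (the control group). The labels name 2 Pvt1 GapmeRs without saying which culture received which, and the whole series rests on 1 cell line. Total RNA of each culture was labelled with Cy3 and hybridised to 1 one-colour array, so each group held 4 biological replicates.

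A ribosome is built from a small subunit (40S), which reads the mRNA, and a large subunit (60S), which joins the amino acids, and most proteins are present as a single copy, while Rplp1 and Rplp2 are present in several in the P stalk, which recruits elongation factors. The mRNAs of ribosomal proteins are among the most abundant of a growing cell, and most of them start with a C followed by a run of pyrimidines, the 5′ terminal oligopyrimidine (TOP) element, through which mTORC1 and the RNA-binding protein Larp1 control their translation and stability. In muscle precursors, ribosome supply is tied to growth and proliferation.

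Pvt1, the target, had a log2 signal of 9.65, 9.79, 10.31 and 9.70 in control replicates 1 to 4 and of 7.09, 6.69, 7.85 and 6.39 in silenced replicates 1 to 4, with no overlap between groups. The change, always given here as silenced minus control on the log2 scale, was -2.86 (SE 0.32, limma adjusted p = 0.000682). Between 58.8% and 62.5% of spots were positive and significant on the control arrays, between 59.8% and 61.0% on silenced replicates 1 to 3, and 51.6% on silenced replicate 4, the dimmest array. Control replicate 3 had the lowest mean correlation with its own group, 0.960. Of 8 myoblast markers, 7 were well above background on every array, while Myf5 was not well above background on any. Their summed signal lay between 16.75 and 17.02 log2 units on control arrays and between 16.21 and 16.51 on silenced arrays, with Myod1, Des and Cdh15 called lower. Of 6 tested markers of differentiated muscle 2 were called lower, and of 4 white blood cell markers none was called, with a summed signal of 9.84 to 10.33 in controls and 10.27 to 11.95 in silenced cells. The summed signal of the 20 liver markers checked lay between 10.19 and 10.99 log2 units on control arrays and between 12.45 and 12.90 on silenced arrays. Of these 20, 1 was well above background on all controls and 7 on all silenced arrays, with Alb, Mup1 and Serpina1a well above background on all silenced arrays and on no control array. The part of these markers in the results below was not tested.

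A probe was tested when at least 3 of 4 arrays of each group gave a value, which left 179 of the 186 ribosomal protein probes and 83 of the 87 genes. The genes without a test were Rpl3l, which is restricted to striated muscle, and Rpl10l, Rpl39l and Rps4l. None of their probes was well above background on any array. Each gene was represented by its brightest tested probe. Of the 186 probes, 65 were spotted 10 times on each array, and the SD over the 10 spots of a probe had a median of 0.05 log2 units.

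None of the 83 ribosomal protein genes passed the test in either direction (limma, adjusted p under 0.05), while 5.99% of all 19360 genes tested passed it as higher and 14% as lower. At an unadjusted p under 0.05, 1 of the 83 genes was left, against 33.1% of all genes. The SE of this fit draws on the spread of all probes, and the lowest SE among the 83 genes was 0.17. A t-test that uses each probe's own spread, unadjusted, called 37.3% of the 83 genes higher and 10.8% lower. Of all genes it called 9.95% higher and 19.6% lower. The median change of the 83 genes was 0.08, beside -0.09 for all genes. Of the 83 genes, 56 had a change above 0 and 27 a change below 0, and 76 (91.6%) lay within 0.25 log2 units of 0, where 31.4% of all genes lay. Of 736 other genes with a mean log2 signal over 15, 62.2% lay within 0.25, 9 were called higher and 71 lower. In bulk RNA, fewer cells of a type and less RNA per cell cannot be told apart. Changes ran from -0.46 for Rpl7l1 to 0.50 for Rpl13. The 95% interval of the change lay within 1 log2 unit of 0 for 82 of the 83 genes. The exception was Rpl37, whose brightest tested probe was well above background on 3 of 4 arrays in each group. The probe of its near-identical copy Rpl37rt had a change of 0.13.

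**Figure D1:**
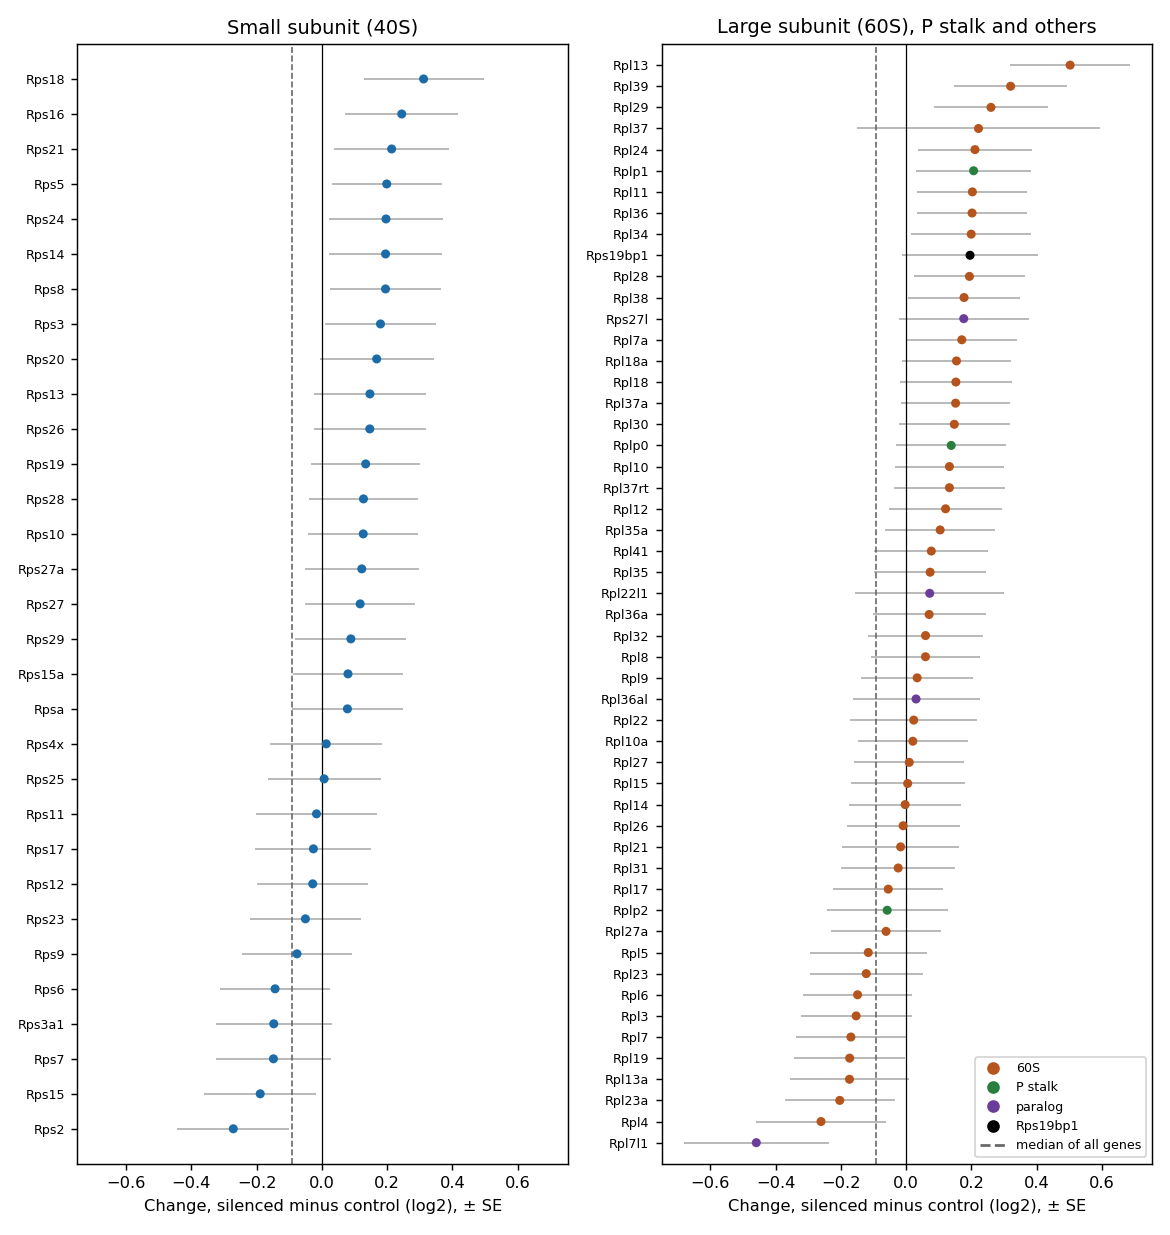
Change of each of the 83 tested ribosomal protein genes (silenced minus control, log2, brightest probe). Points are changes and bars their SE in the limma fit, small subunit genes on the left and all others on the right, and the dashed line is the median of all genes tested. Points lie between -0.46 and 0.50, and 76 lie within 0.25 of 0; the median of 0.08 falls to -0.01 under cyclic loess normalization.

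The sign of this small shift changed with the scaling. With each array only shifted to its 75th percentile, the median of the 83 genes became 0.46 and that of all genes 0.29, and 60 of the 83 genes (72.3%) were called higher, beside 29.8% of all genes. With cyclic loess the medians were -0.01 for the 83 genes and 0.11 for all genes, so that the ribosomal protein genes stood 0.12 below all genes, where quantile normalization had placed them 0.17 above. In the authors' series table the medians of the 83 genes and of all genes were 0.11 and 0.12. Over the 31 ribosomal protein genes with a probe that holds a polyadenylation signal, the median was 0.03, 0.14 below that of all genes with such a probe, and when the probes of each gene were averaged it was -0.0011, 0.17 above that of all genes. Without silenced replicate 4, the 83 genes stood 0.05 above all genes, and 1 of them was called higher (1.205%, beside 15.5% of all genes).

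**Figure D2:**
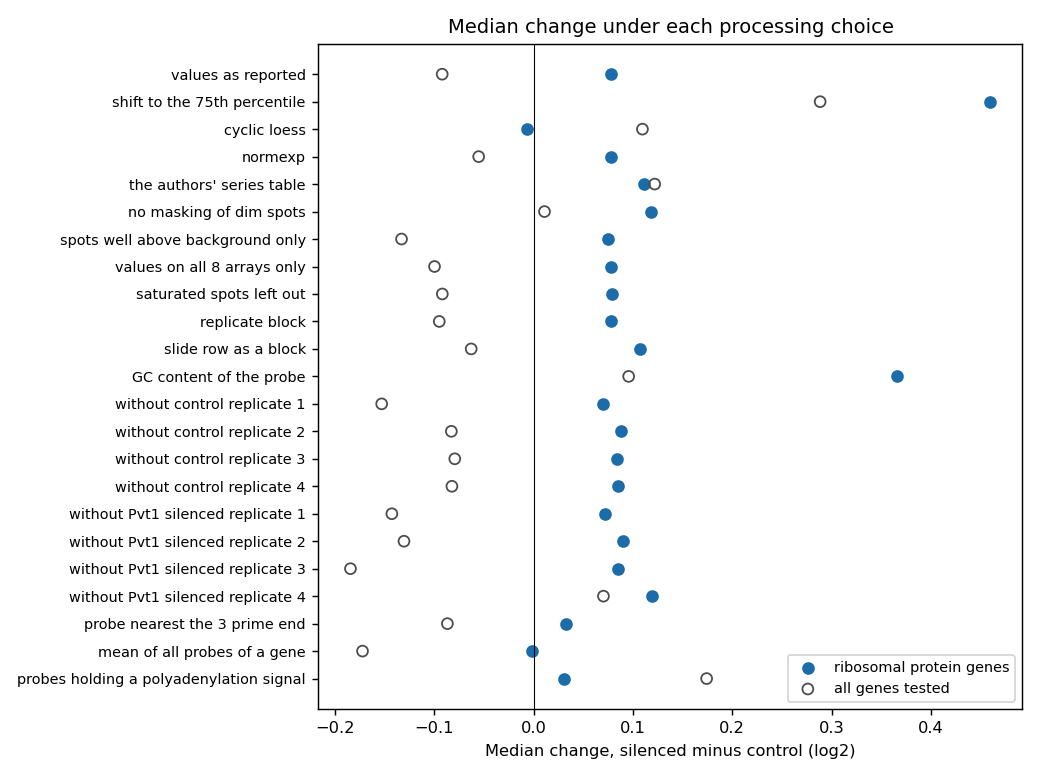
Median change (silenced minus control, log2) of the ribosomal protein genes (filled) and of all genes tested (open) under each processing choice, 1 choice a line. The filled points stay between -0.01 and 0.12 except under the shift to the 75th percentile (0.46) and the correction for probe GC content (0.37), and the open points move between -0.18 and 0.29.

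The arrays of a group differed little at these genes, with a median SD over 4 control arrays of 0.06 log2 units and over 4 silenced arrays of 0.07. The SE of the fit, which draws on the spread of all probes, was 0.17 for the median gene. The groups did not overlap in 29 genes with all silenced values higher and in 10 with all lower, beside 7.1% and 18.9% of all genes. Sizes in the higher set ran from 0.10 to 0.50 and in the lower set from -0.08 to -0.46. Under cyclic loess the counts were 11 (13.3%) and 14 (16.9%), beside 23.9% and 16.1% of all genes. The methods' t-test, which uses each probe's own spread, called 10 of the 83 genes higher (12.05%) and 4 lower (4.82%) after a Benjamini-Hochberg adjustment that was added here, beside 2.58% and 7.73% of all genes. A robust trended prior in limma called 3 higher (3.61%) and 0 lower, beside 8.19% and 15.7% of all genes.

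Of the 31 small subunit genes tested, 21 had a change above 0, with a median of 0.12 and a range from -0.27 to 0.31. The highest was Rps18, a protein of the head of the small subunit, at 17.08, 17.00, 16.95 and 16.96 in controls and 17.02, 17.41, 17.41 and 17.39 in silenced cells (change 0.31, SE 0.18, limma adjusted p = 0.255). Silenced replicate 1 lay among the controls and the other 3 above them. Rps16 followed at 0.24 and Rps21 at 0.21. The lowest was Rps2, which lies near the entry of the mRNA channel, at 16.49, 16.52, 16.52 and 16.45 in controls and 16.24, 16.30, 16.08 and 16.28 in silenced cells (change -0.27, SE 0.17, limma adjusted p = 0.287). Every silenced value of Rps2 was below every control value. Rps6, the subunit protein phosphorylated by S6 kinase, had 16.42, 16.43, 16.35 and 16.41 in controls and 16.29, 16.27, 16.24 and 16.24 in silenced cells, a change of -0.14. Rpsa, the laminin receptor, which is also a protein of the small subunit, had a change of 0.08, with 16.33, 16.33, 16.53 and 16.33 in controls and 16.47, 16.44, 16.44 and 16.50 in silenced cells. Control replicate 3 lay above all silenced arrays, and without it the change of Rpsa was 0.13.

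Of the 44 large subunit genes tested, 29 had a change above 0, with a median of 0.06 and a range from -0.26 to 0.50. The lowest was Rpl4, which lines the exit tunnel of the new protein, at 15.51, 15.62, 15.27 and 15.41 in controls and 15.30, 15.44, 15.13 and 14.90 in silenced cells (change -0.26, SE 0.20). Its groups overlapped. Rpl23a, where the signal recognition particle docks, had 16.24, 16.27, 16.17 and 16.19 in controls and 16.05, 16.07, 15.94 and 16.01 in silenced cells, a change of -0.20 with no overlap. Rpl5 and Rpl11, which form a particle with 5S rRNA that can bind Mdm2, had changes of -0.12 and 0.20. In the P stalk, Rplp0 had 16.30, 16.25, 16.28 and 16.23 in controls and 16.33, 16.43, 16.44 and 16.41 in silenced cells, a change of 0.14 (SE 0.17). Rplp1 and Rplp2 had changes of 0.21 (SE 0.18) and -0.06 (SE 0.19). All silenced values of Rplp0 lay above its controls, and the groups of the other two overlapped.

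Of the members named as paralogs of another member, 4 were tested and none passed. Rpl7l1, a paralog of Rpl7, had the lowest change of all members, with 10.19, 10.66, 10.34 and 10.64 in controls and 10.18, 10.16, 10.10 and 9.56 in silenced cells (change -0.46, SE 0.22, limma adjusted p = 0.165). Its lowest control value lay just above its highest silenced value. Rps27l, a target of p53, had a change of 0.18 (SE 0.20), which ranged from 0.092 without silenced replicate 3 to 0.28 without silenced replicate 4. Rpl22l1 had a change of 0.07 (SE 0.23) and Rpl36al of 0.03 (SE 0.19). Rps19bp1 falls under the rule by its name but encodes a protein that binds Rps19 and Sirt1 and is not a part of the ribosome, and its change was 0.20 (SE 0.21), with 0.11 without silenced replicate 3 and 0.30 without control replicate 3.

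The largest changes above 0 among the 83 genes, which limma did not call, were those of Rpl13 and Rpl39. Rpl39 encodes a very small protein at the exit tunnel and was read by 5 probes, with changes above 0 at all of them. The probe that spans a splice junction (position 153 of NM_026055, chromosome X, 34622696 to 34623990, minus strand, build mm9) is shown here because it reads joined exons.
Rpl39 at 153: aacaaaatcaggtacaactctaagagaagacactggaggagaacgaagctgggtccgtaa
It had 15.16, 15.22, 14.93 and 15.35 in controls and 15.76, 15.79, 15.86 and 15.53 in silenced cells, a change of 0.57 (SE 0.19, limma adjusted p = 0.0539). No values overlapped. Changes at the other probes, from the 5′ to the 3′ side, were 1.05 at position 32, 0.77 at 129, 0.35 at 231 and 0.32 at 277, with limma adjusted p between 0.0549 and 0.216. At position 32 control replicate 3 was far below the other controls, at 11.47 beside 12.63 to 13.26. The Rpl13 junction probe (position 540 of NM_016738) had 15.55, 15.72, 15.41 and 15.58 in controls and 16.17, 16.12, 16.14 and 15.84 in silenced cells, a change of 0.50 (SE 0.18, limma adjusted p = 0.0768). A second Rpl13 probe of almost the same signal (position 607), which the files place on chromosome 4 and which could read a near-identical copy, had a change of 0.19, and the one at position 705 had -0.04. Without silenced replicate 1, 2 or 3 the probe at 607 became the brightest of Rpl13, and the change of the gene was then between 0.17 and 0.21. Without silenced replicate 4 it was 0.58 and Rpl13 was called higher (limma adjusted p = 0.0223).

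Probes other than the brightest of their gene were examined next. Of all 179 tested probes, 0 were called higher and 10 lower (limma, adjusted p under 0.05), which is 5.59% of them, beside 4.79% higher and 18.4% lower over all 28649 probes. Fewer of them were thus called than of all probes, and the 10 are described one by one without a claim about the family. The 10 probes belong to 9 genes, and they were singled out after their values were seen. Of the 10, 7 have no curated RefSeq accession (NM or NR) in the array annotation: they stand for Ensembl or cDNA clone transcripts, or in Rps24 for a predicted RefSeq model (XM), of Rpl10a, Rps24, Rps9 (2 probes), Rps12, Rpl12 and Rpl13. Of the ribosomal protein probes with an NM or NR accession 3 of 145 were called lower (2.07%), and of those without 7 of 34 (20.6%). Among the probes of all other genes these shares ran the other way, 20.1% with and 15.04% without such an accession. At a signal limit chosen after the values were seen, 9 of the 26 ribosomal protein probes with a mean log2 signal under 14 were called lower (34.6%) and 1 of the 153 at 14 or more (0.654%), beside 18.8% and 12.9% of the probes of other genes. The ribosomal protein probes without an NM or NR accession were dimmer, with a lower quartile of 10.73 log2 units beside 15.49 for the others. The parts of accession and signal were not tested. The count changed with the arrays and the fit: 4 probes were called lower without control replicate 2, 4 without control replicate 4, and 2 with the row of the slide as a block. Of all genes, 8.15%, 7.93% and 5.97% were called lower in these settings, beside 14% as reported. The drop was thus not particular to these probes. Control replicates 1 to 3 and silenced replicate 1 lay in 1 row and the other 4 arrays in the second.

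**Figure D3:**
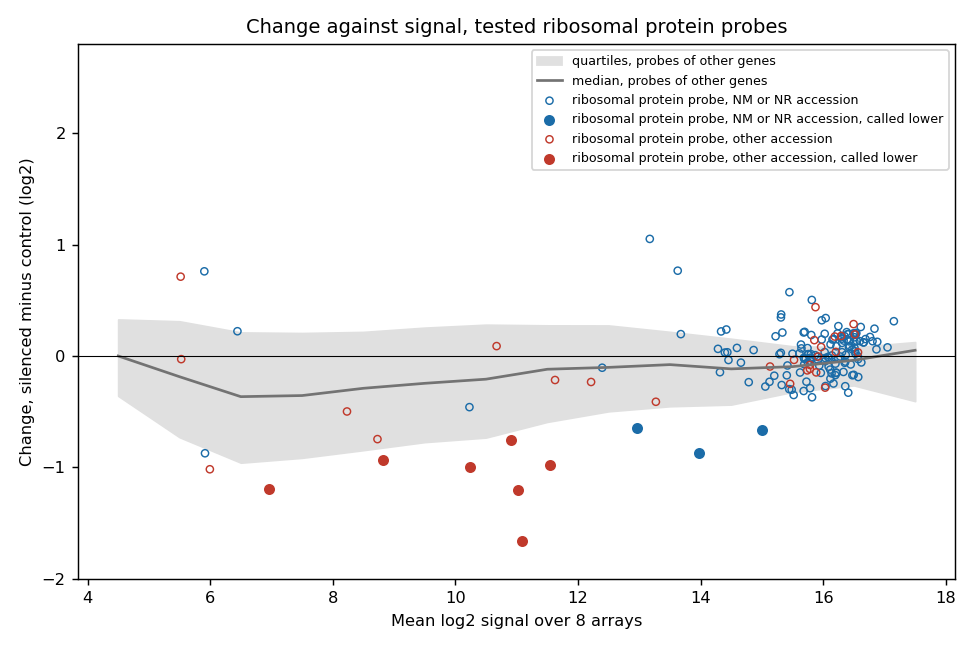
Change (silenced minus control, log2) against mean log2 signal over 8 arrays for the 179 tested ribosomal protein probes, with the median (line) and quartiles (band) of the probes of all other genes. Blue marks probes with an NM or NR accession and red all others, and filled points are the 10 called lower, of which 1 is among the 71 probes between 14 and 16 and none among the 82 above 16.

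The sequences below set the probe of the mRNA (60 bases) beside the first 30 bases of the called probe of the other transcript, since only the latter was called. Each is written as in the transcript, 5′ to 3′, as the array annotation gives it, and all coordinates are of build mm9. Whether a called probe lies in an exon or an intron was not looked up in an annotation of that build. A change at it can thus not be assigned to a spliced transcript or to unspliced RNA of the locus. The exception is the called Rps9 probe that spans a splice junction.
Rpl10a mRNA, NM_011287, chr17:28467854-28467913: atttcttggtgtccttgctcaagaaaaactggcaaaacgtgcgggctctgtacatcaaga
Rpl10a other, ENSMUST00000143443, chr17:28466103-28466162: caggcaggctggctggacggacccccaccc
Rps9 mRNA, NM_029767, chr7:3658287-3658346: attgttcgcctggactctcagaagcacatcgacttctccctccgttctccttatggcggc
Rps9 other, ENSMUST00000146303, chr7:3656912-3656971: ttcttataggtgactgggcctacatacaca
Rps9 other, ENSMUST00000136858, chr7:3657509-3657656: aacgtcacattagcctttggagctgacaga
Rpl12 mRNA, NM_009076, chr2:32819082-32819298: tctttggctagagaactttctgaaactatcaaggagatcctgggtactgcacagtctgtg
Rpl12 other, ENSMUST00000154340, chr2:32818948-32819007: aggtaaaatggagccatgatctcagaagac
Rpl13 mRNA, NM_016738, chr8:125627816-125628964: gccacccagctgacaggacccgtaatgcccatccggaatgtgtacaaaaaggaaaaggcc
Rpl13 other, ENSMUST00000129311, chr8:125628690-125628749: ttaataaattcaccagaatgtgccttacag
The mRNA probes of Rpl12 and Rpl13 span a splice junction, as does the ENSMUST00000136858 probe of Rps9. The called Rpl13 probe lies inside the gap of the Rpl13 junction probe, so it is outside the exons joined there. The same was true of the called Rps24 probe (chromosome 14, 25314669 to 25314728), which lies between the 2 ends of the NM_011297 junction probe. The only other member probe inside such a gap, of Rpsa, belonged to the same accession as the junction probe and had a change of 0.27. Among other genes 60 tested probes lay inside a junction gap, of which 7 (11.7%) passed as lower, and their median change was -0.25.

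The largest fall was at the probe that the array annotation assigns to the Rpl10a transcript ENSMUST00000143443. Rpl10a forms the mobile L1 stalk of the large subunit. This probe had 11.67, 12.08, 11.92 and 12.01 in controls and 10.50, 10.44, 10.18 and 9.93 in silenced cells, a change of -1.66 (SE 0.21, limma adjusted p = 0.00101). All silenced values lay more than 1 log2 unit below every control, and 31.6% of the control level was left. At the Rpl10a mRNA the controls were 16.49, 16.54, 16.55 and 16.49 and the silenced arrays 16.52, 16.60, 16.55 and 16.48. That change was 0.02 (SE 0.17).

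Rps24, a small subunit protein mutated in Diamond-Blackfan anaemia, had 1 called probe. Its predicted transcript XM_011244997 had 11.49, 11.81, 11.45 and 11.72 in controls and 10.47, 10.63, 10.41 and 10.17 in silenced cells (change -1.20, SE 0.19, limma adjusted p = 0.00298). Its brightest mRNA probe had 16.17, 16.45, 16.30 and 16.34 in controls and 16.55, 16.47, 16.55 and 16.47 in silenced cells, a change of 0.20 with no overlap. The other mRNA probes, of NM_207634 and NM_207635, had changes of -0.06 and -0.10 (limma adjusted p = 0.867 and 0.790), with groups that overlapped.

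Rps9, whose protein sits near the mRNA entry site, had 2 called probes. ENSMUST00000146303 had 7.47, 7.92, 7.04 and 7.77 in controls and 6.75, 6.41, 6.45 and 5.82 in silenced cells (change -1.19, SE 0.27, limma adjusted p = 0.0128). ENSMUST00000136858 had 11.14, 11.38, 11.27 and 11.34 in controls and 10.74, 10.71, 10.51 and 10.13 in silenced cells, a change of -0.76. The mRNA probe had a change of -0.08 (SE 0.17). Rpl12, at the base of the P stalk, had 11.82, 12.12, 12.20 and 12.005 in controls and 11.13, 11.26, 11.17 and 10.67 in silenced cells at ENSMUST00000154340, a change of -0.98 (SE 0.21), and a change of 0.12 (SE 0.17) at its brightest mRNA probe. Another probe of the Rpl12 mRNA (position 322) had 16.22, 16.18, 16.14 and 16.15 in controls and 15.87, 15.89, 15.94 and 15.92 in silenced cells, a change of -0.27 (SE 0.17, limma adjusted p = 0.278) with all silenced values lower. Rps12, a protein of the small subunit, had a change of -0.99 (SE 0.27) at the clone AK132208 and of -0.03 at its mRNA. Rpl13 had 9.08, 9.40, 9.18 and 9.47 in controls and 8.60, 8.62, 8.52 and 7.67 in silenced cells at ENSMUST00000129311, a change of -0.93 (SE 0.25), against 0.50, 0.19 and -0.04 at its mRNA probes. Silenced replicate 4 was the lowest array at each of the 7 probes.

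**Figure D4:**
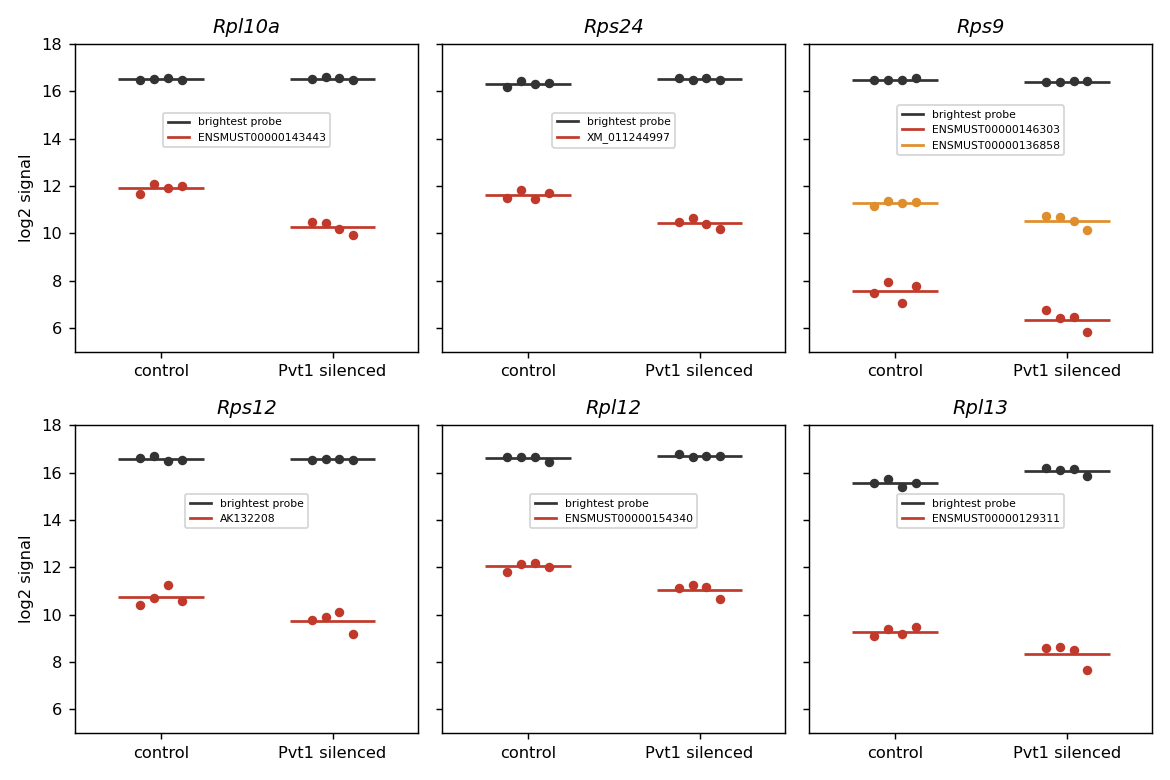
Log2 signal in each of the 8 arrays at the brightest probe of the gene (black) and at the called probes of other transcripts (red and orange) of 6 ribosomal protein loci. Points are arrays and lines group means; changes of the other transcripts lay between -1.66 and -0.76 and those of the brightest probes between -0.08 and 0.50, and signals of different probes are not comparable as amounts.

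The other 3 called probes do belong to RefSeq mRNAs, and each lies on the 5′ side of a probe that was not called. Rpl3, near the peptidyl transferase centre, and Rpl6 are shown with 2 probes each, as they were read from the same mRNA.
Rpl3 at 1115, NM_013762, chr15:79908489-79908772: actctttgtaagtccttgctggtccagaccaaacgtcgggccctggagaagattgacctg
Rpl3 at 159, NM_013762, chr15:79912877-79912936: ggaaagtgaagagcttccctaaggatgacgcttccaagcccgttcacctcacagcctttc
Rpl6 at 787, NM_011290, chr5:121658582-121658847: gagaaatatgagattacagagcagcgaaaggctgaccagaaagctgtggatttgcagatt
Rpl6 at 322, NM_011290, chr5:121655775-121655834: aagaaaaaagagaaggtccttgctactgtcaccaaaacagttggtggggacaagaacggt
At position 159, Rpl3 had 14.19, 14.45, 14.43 and 14.56 in controls and 13.77, 13.83, 13.23 and 13.31 in silenced cells (change -0.87, SE 0.21, limma adjusted p = 0.0177). At position 1115 the change was -0.15 (SE 0.17). Rpl6 changed by -0.67 (SE 0.18) at position 322 and by -0.15 at position 787. Rpl9 changed by -0.65 (SE 0.19) at position 53 and by 0.03 at position 568. None of the 3 passed the test under the shift to the 75th percentile, the correction for probe GC content or the slide row as a block, or without control replicate 2 or 4, and all 3 passed it under cyclic loess.

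Pairs of probes along 1 mRNA were compared next. For 42 ribosomal protein accessions, 2 tested probes lay at least 60 bases apart, and in 29 of them (69.0%) the change was lower at the probe nearest the 5′ end. The median difference, 5′ minus 3′, was -0.12. Among 3935 accessions of other genes the 5′ probe had the lower change in 80.4%, with a median difference of -0.61. The medians at the 5′ and the 3′ probe were -0.02 and 0.04 for the ribosomal protein accessions and -0.70 and -0.04 for the others. Rpl39 went the other way, as did Rps15a, where the distal probe at position 4642 had a change of -0.87 (limma adjusted p = 0.119) against 0.07 at position 250. The distal Rps15a probe had a mean log2 signal of 5.92 beside 15.65 at position 250, and it was well above background on all 4 control arrays and on 1 silenced array. The pairs of ribosomal protein accessions and of other genes were not matched for signal or for distance. The log2 signal of the 5′ probe minus that of the 3′ probe had a median of -0.45 and -2.02, respectively.

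**Figure D5:**
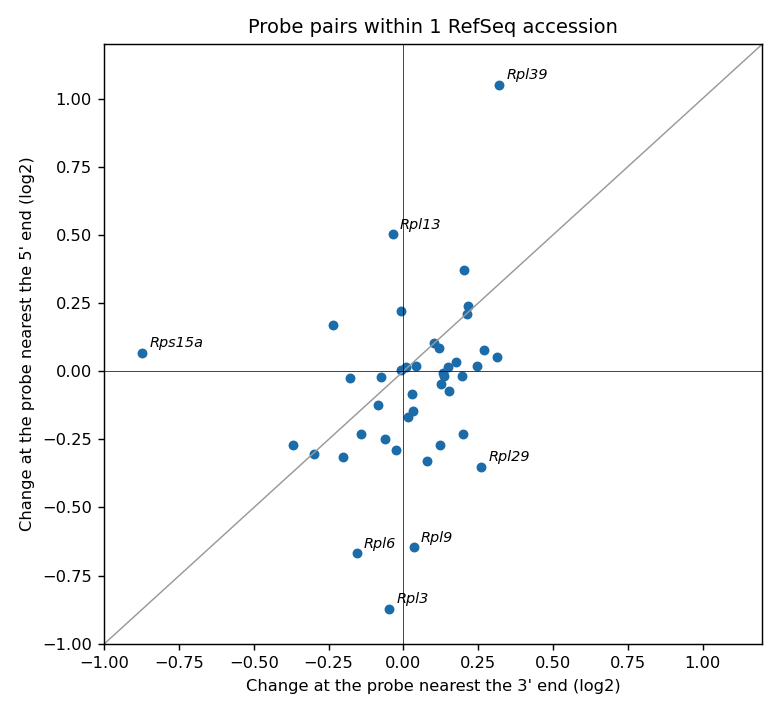
Change (silenced minus control, log2) at the probe nearest the 5′ end against that at the probe nearest the 3′ end, for 42 ribosomal protein accessions with 2 tested probes at least 60 bases apart. Points below the diagonal line (29) had a lower change at the 5′ probe; names mark pairs that differ by more than 0.5, with Rpl3 lowest at -0.82 and Rps15a highest at 0.94, where the 3′ probe had a mean log2 signal of 5.92.

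In the 61 ribosomal protein genes with at least 2 tested probes, the range of changes over the probes of a gene had a median of 0.25, beside 0.83 in 6282 other genes with several probes. The range was over 0.5 in 17 genes (27.9%) and in 69.7% of the others. The comparison was not matched for signal. Tested probes with an NM or NR accession had a median log2 signal of 16.03 for ribosomal protein genes and 9.57 for all others. The part of signal was not tested. The 5 widest ranges were those of Rpl10a (1.70), Rpl13 (1.43), Rps24 (1.40), Rps9 (1.17) and Rps29 (1.15). In Rps29 the low probe, ENSMUST00000094291, had a change of -1.02 (limma adjusted p = 0.106), and its signal was well above background on 3 control arrays and on none of the silenced ones, while its 3 RefSeq probes had changes from -0.01 to 0.13.

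Most genes of the list are held to start with a TOP element, so the start sites were read from RefSeq (GRCm38.p6), where 66 of the 87 genes matched a promoter entry. The motif searched was a C at the annotated first base followed by at least 4 bases that were each C or T, on the strand of the gene. It was present in 13 of the 66 genes (19.7%) and in 3.01% of all 27025 genes with an entry. When the run could begin within 5 bases of the annotated start, it was present in 29 of the 66 (43.9%) and in 21.2% of all genes with an entry. The windows below show 20 bases before the start and 20 from the start on, with the pyrimidine run in capitals, for the 3 largest and 3 smallest changes among the 13.
Rps18, chr17:33955646-33955685, minus strand: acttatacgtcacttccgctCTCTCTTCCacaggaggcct
Rps21, chr2:180257359-180257398: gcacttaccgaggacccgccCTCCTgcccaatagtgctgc
Rpl28, chr7:4792945-4792984: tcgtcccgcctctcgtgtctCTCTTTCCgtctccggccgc
Rpl14, chr9:120571497-120571536: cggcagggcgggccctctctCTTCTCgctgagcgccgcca
Rplp2, chr7:141447631-141447670: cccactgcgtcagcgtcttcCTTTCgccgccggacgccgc
Rps6, chr4:86857348-86857387, minus strand: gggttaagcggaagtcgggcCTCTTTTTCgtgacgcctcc
Rpl13, with the largest change, and Rps2, with the lowest of the small subunit, had no such run at the first base and are shown for comparison. Rps2 did have a run that began within 5 bases of the annotated start, and Rpl13 did not.
Rpl13, chr8:123102330-123102369: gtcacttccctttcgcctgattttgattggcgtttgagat
Rps2, chr17:24720043-24720082: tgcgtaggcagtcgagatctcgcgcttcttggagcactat
The 13 genes with the run at the first base had a median change of 0.10 (range -0.14 to 0.31). The 50 tested genes with an entry but without it there had a median of 0.07 (range -0.46 to 0.50). These 50 include genes with a run within 5 bases of the start, and their lowest value is that of the paralog Rpl7l1. The 29 tested genes with a run within 5 bases had a median of 0.10. The split thus depends on how exactly the first base is annotated. Rps18 and Rps6, with the longest runs of the 6 shown, had changes of 0.31 and -0.14.

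Genes that work with the ribosomal proteins were counted by list, beside the 5.99% of all genes called higher and 14% called lower. Of 19 partners whose mRNAs share the TOP element (among them Fau, which is made as a fusion with a ribosomal protein, Gnb2l1 (Rack1) on the small subunit, the elongation factors Eef1a1 and Eef2, and Pabpc1 and Tpt1), none was called by limma in either direction, and their median change was -0.07. Of 17 genes of mTORC1 and of TOP regulation, 1 was called higher (5.88%) and 3 lower (17.6%), with a median of -0.39. The higher was Tia1, a stress granule protein that binds TOP mRNAs (change 0.98, SE 0.31, limma adjusted p = 0.0470). Its relative Tial1, which binds them too, was called lower (change -0.83, SE 0.20, limma adjusted p = 0.0155), as was Akt1s1, an inhibitor within mTORC1, at -1.41 (SE 0.27). The lowest was Rps6kb2, an S6 kinase (change -1.75, SE 0.21, limma adjusted p = 0.000928). Larp1 and Mtor had changes of -0.32 and -0.85 (limma adjusted p = 0.415 and 0.127). Of 8 chaperones that escort single ribosomal proteins, 1 was called higher (12.5%) and 2 lower (25%). Heatr3, which carries Rpl5, changed by 0.74 (SE 0.23) at its brightest probe and by -0.33 in the mean of its probes, and Grwd1, which binds Rpl3, changed by -1.16 (SE 0.22).

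Of 50 genes listed as ribosome assembly factors, 0 were called higher and 15 lower (30%) by limma, with a median change of -0.32. The list also holds Polr1a and Polr1b of RNA polymerase I and its initiation factor Rrn3. Of these, only Polr1b was among the genes called lower, with a change of -1.22. The lowest of the list was Rrp9, a component of the U3 small nucleolar particle, with a change of -2.06 (SE 0.23, limma adjusted p = 0.000673). Nucleolin (Ncl) changed by -0.95 (SE 0.19) and Gnl3 by -1.14 (SE 0.20). Of the 77 mitochondrial ribosomal protein genes, 76 were tested, 2 were called higher (2.63%) and 5 lower (6.58%), and the median change was 0.06. The largest calls were Mrpl44 at 0.92 (SE 0.28) and Mrpl10 at -1.11 (SE 0.22). The differences between lists were not tested.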

How the data were processed

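Total RNA of 8 C2C12 cultures was labelled with Cy3 and hybridised to one-colour Agilent arrays of 1 slide. The deposited scanner files hold spot intensity from Feature Extraction (version 12.0.0.7 per the file headers, 10.7.3.1 per the labels), background-corrected by the authors' software. The series table deposited by the authors holds normalized intensity on a linear scale and served as an alternative. Following the study's methods, spots not positive and significant were set to missing, log2 processed signals were quantile normalized and spots of a probe were averaged. Probes with at least 3 values in each group (28649) were fitted with limma 3.58.1 in R 4.3.3, with Benjamini-Hochberg adjustment over all of them at 0.05, in a fit checked on simulated data. The number of arrays limits the precision. The members, the gene lists and the rules below were chosen with earlier results of these data known. Named were the P stalk proteins, Rpsa, paralogs, Rps19bp1, the 5 genes with the widest range over probes, and the largest calls of each list; all other genes and probes named were chosen after their values were seen. Alternatives covered normalization, background, masking, probe choice, GC content, slide row, replicate block, test and each array left out. Promoters came from RefSeq.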

Additional observations from a re-analysis of the deposited data

Results flagged for a closer look

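In 68 groups of 4 arrays, each a named gene, probe or median in 1 condition, the gap between an extreme array and its nearest neighbour was divided by the range of the group, and 8 groups were above Dixon's critical value. Chance gives such a gap in about 1 in 20 groups. The causes of the gaps were not tested.

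Among controls, the ratio was 0.980 for Rpsa, where replicate 3 was high at 16.53 beside 16.33, 16.33 and 16.33. It was 0.868 for Mrpl44, where replicate 3 was low at 9.47 beside 10.06 to 10.14, and 0.970 for the difference between the median signal of the ribosomal protein genes and that of all genes, where replicate 1 was high at 6.86 beside 6.64 to 6.65.

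Among silenced arrays, replicate 4 was the low one in 5 groups: Rpl7l1 with a ratio of 0.866, the brightest Rpl13 probe with 0.835, the Rpl13 transcript ENSMUST00000129311 with 0.897, the Rpl9 probe at position 53 with 0.861 and Tia1 with 0.876.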

How the results depend on the processing

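Pvt1 stayed lower and called under every alternative run for it, and the authors' series table gave no value for its probe. The alternatives below moved the other results. The number of ribosomal protein genes called higher, 0 as reported, was 60 with a shift to the 75th percentile (72.3%, beside 29.8% of all genes), 1 with cyclic loess (1.205% beside 22.1%), 2 in the authors' series table (2.41% beside 22.8%), 19 with no masking of dim spots (21.8% beside 10.3%), 1 with spots well above background only (1.205% beside 7.02%), 3 with a robust trended prior (3.61% beside 8.19%), 31 and 10 by the methods' t-test before and after adjustment (37.3% and 12.05% beside 9.95% and 2.58%), and 17 with the GC content correction (20.5% beside 10.1%). Genes called lower numbered 1, 6, 9 and 4 with cyclic loess, no masking and the t-test before and after adjustment (1.205%, 6.90%, 10.8% and 4.82%, beside 14.3%, 6.81%, 19.6% and 7.73% of all genes). The median change was 0.46 with the shift, -0.0066 with cyclic loess, 0.11 in the series table, 0.12 without masking, 0.11 blocked by slide row, 0.37 with GC content, 0.032 at the 3′ probe, -0.0011 as the mean of probes and 0.030 at polyadenylation signal probes. Relative to all genes it was -0.12 with cyclic loess, -0.010 in the series table and -0.14 at polyadenylation signal probes. Leaving out 1 array gave 0 to 1 genes higher (beside 3.06% to 15.5% of all genes), medians of 0.070 to 0.12 and relative medians of 0.049 to 0.27. Probes called higher, 0 as reported, were 112 with the shift, 10 with cyclic loess, 4 with normexp, 12 in the series table, 32 without masking, 2 with spots well above background or values on all 8 arrays, 10 with the robust prior, 45 and 18 by the t-test, 27 with GC content and 0 to 4 without 1 array. Shares over all probes were not counted by setting, so the probe counts carry no claim about the family. Of all genes, 7.04% were called higher with normexp and 6.47% with values on all 8 arrays, and the other shares are given above. Probes called lower were 23 without masking, 5 with the replicate block, 2 with the slide row, 32 by the unadjusted t-test, 6 with GC content and 4 to 12 without 1 array. Those without an NM or NR accession were 2 with the slide row, 4 by the adjusted t-test and 4 to 9 without 1 array. Of all genes, 9.93% were called lower with the replicate block, 5.97% with the slide row and 7.87% with GC content. Without 1 array, 7.93% to 15.8% of all genes were called lower. Non-overlapping higher genes numbered 11 with cyclic loess (13.3%, beside 23.9% of all genes).

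Signs turned for Rplp2 (0.28) and Rps9 (0.30) with the shift and for the same genes with GC content (0.054 and 0.38). With cyclic loess they turned for Rpsa (-0.013), Rpl10a (-0.11) and Rps29 (-0.0066). Rpl36al was -0.16 with normexp, -0.030 with spots well above background, -0.058 as the mean of probes and -0.053, -0.0035 and -0.031 without control replicate 1, silenced replicate 1 and silenced replicate 3, within a range of -0.053 to 0.12 over all arrays left out. Rpl22l1 was -0.063 without silenced replicate 3 (range -0.063 to 0.24) and Rplp2 0.039 without silenced replicate 4 (range -0.13 to 0.039). At the 3′ probe and at polyadenylation signal probes Rplp1 was -0.0052, Rpl13 -0.036 and Rps24 -0.096. As the mean of probes Rpl10a was -0.53, Rpl13 -0.069, Rps24 -0.44 and Heatr3 -0.33. The cause was not tested. Correlations between same-numbered arrays were -0.04, 0.19, 0.22 and 0.06. The best-matching silenced array had the same number for control replicates 2 and 3, but not for 1 and 4. With the replicate block 0 ribosomal protein genes were called in either direction, beside 4.46% of all genes higher and 9.93% lower.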
